A study of Ovis aries with 8 samples.

Results

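BAX, an effector of cell death, was followed in carotid arteries of fetal sheep whose mothers had lived at high altitude or near sea level. BAX was 1 of 700 genes that could be named on the ovine array, represented by 2 of its 15008 probes, A_70_P041721 and A_70_P041722, both named BAX in the scanner files and annotated to one partial coding sequence of ovine Bax mRNA. Every non-control probe bearing that name was taken. Descriptions were searched only for probes named by a LOC number or an accession, and none of those carried it. BAX was selected with its hypoxia and normoxia values in these arrays known, so its own group difference is described here and not tested.

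BAX belongs to the BCL-2 family, which controls the mitochondrial route to apoptosis. When activated, BAX moves from the cytosol into the outer mitochondrial membrane, where it and its relative BAK1 form pores that let cytochrome c and other proteins escape and caspases become active. Prosurvival relatives such as BCL2, BCL2L1 and MCL1 bind BAX and BAK1 and hold them in check, and the BH3-only protein BAD blocks the prosurvival members. In arteries, apoptosis of smooth muscle and endothelial cells takes part in remodelling of the wall around birth and under changed blood flow or oxygen supply.

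The hypoxia group was 4 fetuses of ewes kept at 3801 m from gestation day 30 to day 135, a stay that the sample titles give as 110 days. The normoxia group was 4 fetuses of ewes kept at 300 m. All fetuses were at gestation day 140, no genotype or breed was given, and each fetus gave 1 array of Cy3-labelled total RNA. Only the title number told the fetuses of a group apart, so the spread between arrays is taken as the spread between these samples. Day 140 lies after the end of the stated stay at altitude, and the sources used here do not say where the ewes were in between.

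Overall brightness differed widely between arrays: the processed signal had its 75th percentile at 96.8 on the dimmest array (hypoxia 1) and at 1368 on the brightest (normoxia 3), and 59.7% (normoxia 4) to 94.8% (hypoxia 3) of probes were well above background. Levels below are log2 of the processed signal minus that percentile of the same array, so 0 means a signal equal to it. The arrays lay on 3 slides: slide 1 carried normoxia 1 with hypoxia 1, 2 and 3, slide 2 carried normoxia 2 with hypoxia 4, and slide 3 carried normoxia 3 and 4. The 3 smooth muscle markers present, CNN1, MYLK and MYL6, were well above background on all 8 arrays, with CNN1 at log2 levels of 4.99 to 8.68. Their summed level was 420.4 to 1197 times the array's 75th percentile in normoxia and 203.1 to 878.0 times in hypoxia. Because these are bulk arteries, fewer cells of a type and less RNA per cell cannot be told apart.

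Both BAX probes were measured securely on every array. Each had 1 spot per array, and every spot was well above background, unsaturated and not marked as outliers, with mean signals 3.05 to 28.9 times the local background. For A_70_P041721 the processed signal, before any scaling between arrays, was 162, 264, 538 and 254 on normoxia 1 to 4 and 232, 755, 2503 and 511 on hypoxia 1 to 4. Scaled by the array's 75th percentile, the log2 levels were 0.39, -1.18, -1.35 and -0.62 on normoxia 1 to 4 and 1.26, 1.14, 1.03 and -0.76 on hypoxia 1 to 4. The hypoxia 1, 2 and 3 arrays were thus the highest of all 8, normoxia 1 came next, and hypoxia 4 lay among the other normoxia arrays.

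A_70_P041722 gave processed signals of 132, 307, 551 and 243 on normoxia 1 to 4 and 223, 796, 2414 and 587 on hypoxia 1 to 4. Its log2 levels were 0.09, -0.97, -1.31 and -0.69 in normoxia and 1.21, 1.22, 0.97 and -0.56 in hypoxia. The same 4 arrays were high and the same 4 low as with the other probe. Within each array, the signal of A_70_P041721 exceeded that of 84.5% to 86.5% of spots on hypoxia 1, 2 and 3 and of 67.9% on hypoxia 4, against 79.2%, 64.6%, 60.3% and 69.7% on normoxia 1 to 4. That rank within an array uses no scaling between arrays and places hypoxia 4 between normoxia 2 and normoxia 4, as the scaled levels do.

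**Figure D1:**
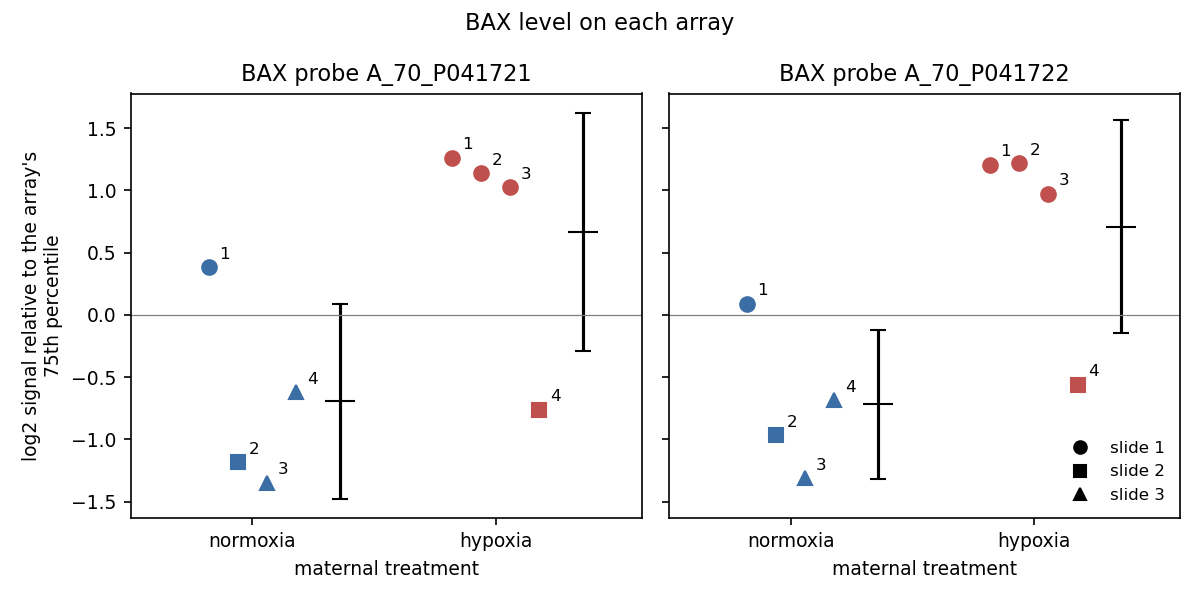
Log2 BAX signal relative to each array's 75th percentile (vertical axis) for the 2 BAX probes, by group, with 1 point per array, the marker shape giving the slide and the bars giving the mean and SD of 4 arrays. The hypoxia 1, 2 and 3 arrays sit at 0.97 to 1.26, above every normoxia array, while hypoxia 4 sits at -0.76 and -0.56, within the normoxia range.

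The mean level of A_70_P041721 was 0.67 ± 0.96 in hypoxia and -0.69 ± 0.78 in normoxia (SD, n = 4 each), a log2 difference of 1.36 (SE 0.57) or 2.56-fold. For A_70_P041722 the means were 0.71 ± 0.85 and -0.72 ± 0.60 (SD, n = 4 each), a log2 difference of 1.43 (SE 0.49) or 2.69-fold. Among the 11216 probes fitted, 98.1% and 98.5% had a lower log2 difference, and 209 probes (1.86%) had one at least as large as that of A_70_P041721. A difference above 0 was in itself common, since 5414 probes (48.3%) were higher in hypoxia, and the median over all fitted probes was -0.02. The groups overlapped for both probes, as they did for most of the array: 194 probes (1.73%) had every hypoxia array above every normoxia array and 107 (0.954%) the reverse. Over the whole array no probe reached an adjusted p of 0.05 (0%; limma with Benjamini-Hochberg adjustment, smallest adjusted p 0.998), and 333 probes (2.97%) were higher and 79 (0.704%) lower at an unadjusted p under 0.05.

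For A_70_P041721 the overlap came from hypoxia 4 alone. For A_70_P041722 hypoxia 4, at -0.56, lay above normoxia 2, 3 and 4 and below normoxia 1 only, at 0.09. The overlap of that probe thus rested on hypoxia 4 and normoxia 1 together, and is absent without either of them. Without hypoxia 4, the lowest hypoxia level lay 0.64 above the highest normoxia level for A_70_P041721 and 0.88 above it for A_70_P041722, and the log2 differences were 1.83 and 1.85. The hypoxia arrays that remained all lay on slide 1, while normoxia 2, 3 and 4 lay on other slides. How many of all probes separate once an array is left out was not counted. Leaving out each of the 8 arrays in turn gave differences of 1.14 to 1.83 and of 1.23 to 1.85. The lowest of these came without normoxia 3, the array with the least BAX. The SD of BAX over all 8 arrays was 1.09 and 1.02, and 73.2% and 71.1% of fitted probes varied less than the respective BAX probe.

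BAX levels also followed the slide. All 4 arrays of slide 1, normoxia 1 included, were above all 4 arrays of the other slides for both probes. The slide 1 arrays averaged 0.95 and 0.87 and the others -0.98 and -0.88 for A_70_P041721 and A_70_P041722. That arrangement was found for 507 of the 11216 probes (4.52%), and the opposite one for 717 (6.39%). Since 3 of the 4 hypoxia arrays and 1 of the 4 normoxia arrays lay on slide 1, group and slide were partly entangled. With slide as a block, the log2 difference between hypoxia and normoxia was 0.62 (SE 0.36) for A_70_P041721 and 0.79 (SE 0.37) for A_70_P041722. Within slide 1, where 3 hypoxia arrays met 1 normoxia array, it was 0.76 and 1.04. Within slide 2, with 1 array of each group, it was 0.42 and 0.41, and slide 3 held normoxia arrays alone. The BAX level was therefore higher in hypoxia on both slides that held both groups, by less than in the unblocked comparison, and the part of the slide in the difference was not otherwise tested.

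The arrays carry the numbers 1 to 4 in both groups, which allows a comparison within each number. Hypoxia minus normoxia for A_70_P041721 was 0.88, 2.32, 2.37 and -0.14 for numbers 1 to 4, against medians over all probes of 0.04, 0.03, 0.14 and -0.11. For A_70_P041722 it was 1.11, 2.18, 2.29 and 0.13. Numbers 2 and 3 gave differences of 4.54-fold to 5.18-fold, number 1 gave 1.84-fold and 2.17-fold, and number 4 gave 0.908-fold and 1.09-fold. Of all probes, 98.0% and 99.3% had a lower difference than A_70_P041721 for numbers 2 and 3, 88.0% for number 1 and 48.6% for number 4. A_70_P041722 was higher in hypoxia for all 4 numbers, as were 1548 probes (13.8%). A_70_P041721 was higher for 3 of 4, and 4088 probes (36.4%) were higher for at least 3. Number 1 was the one pair on a single slide, so its difference is the one free of any offset between slides. It rests on the 2 dimmest arrays, with 75th percentiles of 124 (normoxia 1) and 96.8 (hypoxia 1). BAX mean signals on them were 3.05 to 3.76 times the local background. The large differences of numbers 2 and 3 each set a slide 1 array against an array of another slide. With the number as a block the SEs were 0.49 and 0.42. The differences of 1.36 and 1.43 cannot change there, because each number holds 1 array of each group.

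**Figure D2:**
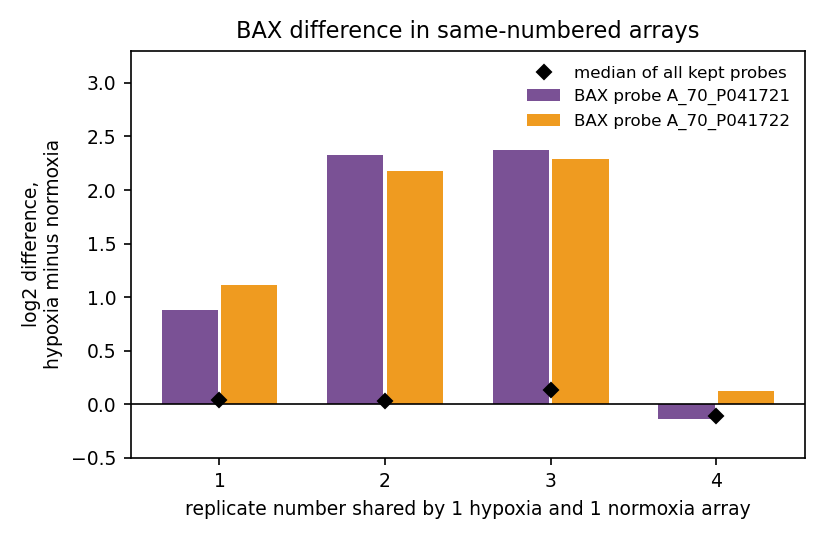
Hypoxia minus normoxia log2 BAX level (vertical axis) for each of the 4 same-numbered pairs of arrays and both BAX probes, beside the median difference over all fitted probes. Numbers 2 and 3 stand at 2.18 to 2.37, number 1 at 0.88 and 1.11, and number 4 at -0.14 and 0.13, close to the median of all probes.

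The size of the difference depended on the background correction as well. With normexp applied to the uncorrected spot and local background signals, BAX was higher in hypoxia by 0.74 (SE 0.49) and 0.81 (SE 0.45), while the median over all probes was -0.32. Relative to that median the differences were 1.06 and 1.12, against 1.38 and 1.45 without normexp. Scaling to the array median placed the median of all probes at -0.20 and BAX at 1.18 and 1.25, the same distance from the median as before. Over 22 alternatives per probe, leaving out single arrays included, the BAX difference ranged from 0.41 to 1.85. It was above 0 in all 46 values of the 2 probes, the reported values included. All reuse the same 8 arrays, and BAX was selected with its difference known, so their common sign is no test of it. Other filters and the number as a block cannot move the value. Single same-numbered pairs, with -0.14 for number 4 at A_70_P041721, are not among them.

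**Figure D3:**
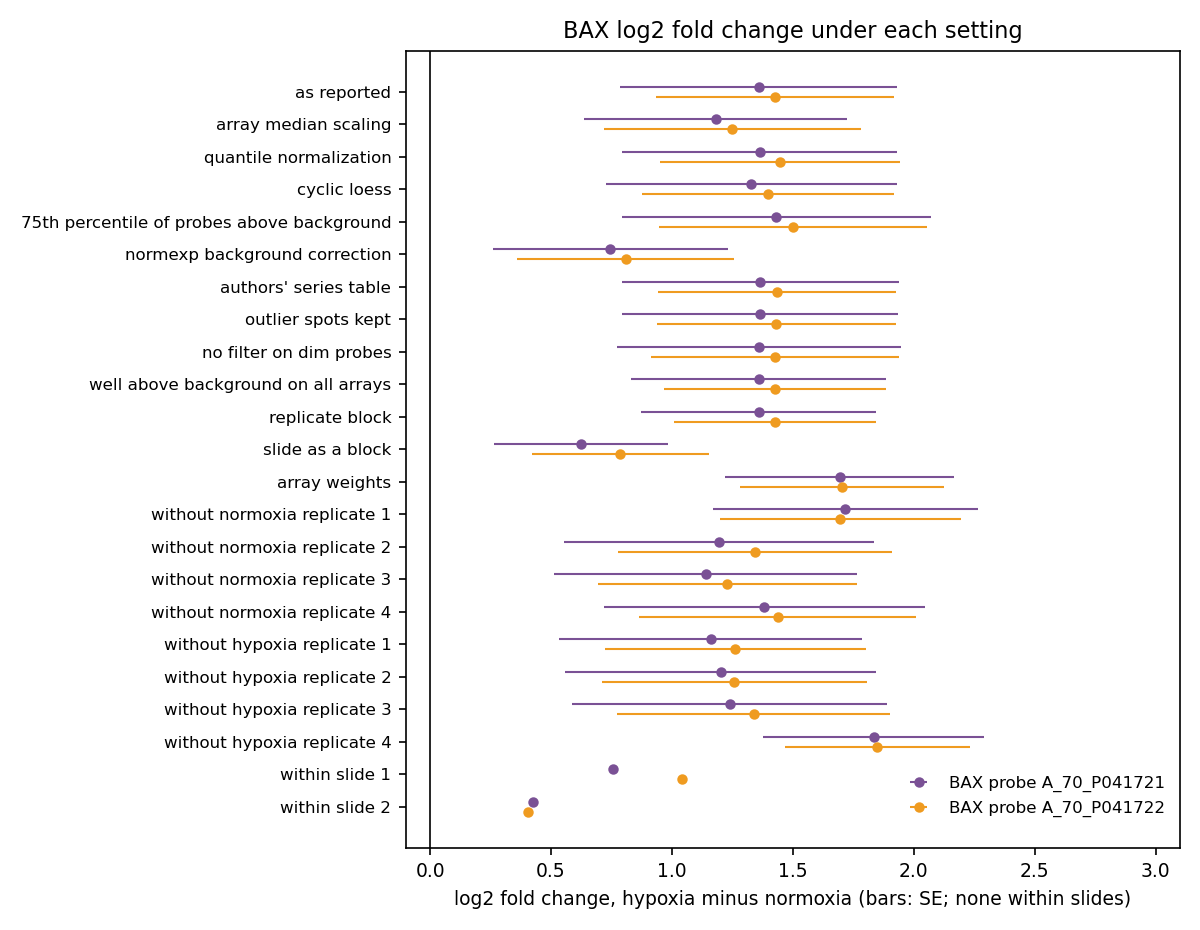
Log2 difference in BAX between hypoxia and normoxia (horizontal axis) for the 2 probes under each way of processing the arrays, with bars of 1 SE where a fit gave one. All values lie above 0, with the smallest within slide 2 (0.42 and 0.41) and the largest without hypoxia 4 (1.83 and 1.85).

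The pair of BAX probes agreed closely in their pattern over arrays. Their levels correlated with Pearson's r of 0.990 and Spearman's rho of 0.952 over the 8 arrays. Across 334 pairs of probes on this array that share a target, the median r was 0.933, and 88.9% of pairs had a lower r than BAX. The 2 BAX differences lay 0.07 apart, where the median distance over those pairs was 0.15, and 80.8% of the pairs had differences of one sign. The gap between the BAX probes strayed most from its mean on normoxia 1, by 0.30, with an SD over arrays of 0.17. Both probes are targeted to the same transcript and were read on the same arrays from the same RNA, so their agreement speaks to the measurement on an array and not to the spread between fetuses.

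The summed signal of endothelial markers was high on the arrays where BAX was high, though its genes differed among themselves. Of 13 listed endothelial genes 8 were on the array, EDN1, FLT1, KDR, NOS3, SELE, SELP, TEK and TIE1. The defining genes PECAM1, CDH5 and VWF were not named on it. The summed level of the 8, in units of the array's 75th percentile, was 1.91, 0.795, 1.53 and 0.618 on normoxia 1 to 4 and 2.85, 2.58, 2.43 and 0.675 on hypoxia 1 to 4. The 4 arrays of slide 1 thus had the highest sums, and hypoxia 4 lay with the low normoxia arrays, as for BAX. Normoxia 3 departed from this, with the lowest BAX of all arrays and an endothelial sum of 1.53. None of the 8 genes was below background on every array, and 4 to 8 of them were well above it on any one array. NOS3 made up 38.0% of the sum on average and 57.1% on hypoxia 2. Without NOS3 the sum was 1.29, 0.452, 1.10 and 0.439 on normoxia 1 to 4 and 1.91, 1.11, 1.52 and 0.379 on hypoxia 1 to 4, so that hypoxia 2 and normoxia 3 were nearly level. Over the 8 arrays the log2 sum correlated with BAX at r = 0.787 with NOS3 and 0.683 without it. Taken singly, NOS3 (r = 0.844) and TIE1 (0.80) followed BAX most closely, FLT1 and TEK had r = 0.26, near the median of 0.22 over named genes, and all 8 were above 0, as were 67.4% of named genes and 60.1% of all probes. NOS3 cleared background on all 4 arrays of each group. TIE1 did so on 1 normoxia array and 3 hypoxia arrays, so its r rests in part on dim spots. NOS3 alone had every slide 1 array above all others. FLT1 and TEK were lower in hypoxia on average, by -0.91 and -0.66. Dim spots enter these differences too, with the lowest levels of -7.48 and -7.80 on hypoxia 4. FLT1 cleared background on 3 normoxia arrays and 2 hypoxia arrays, and TEK on 1 and 2. On hypoxia 2, one of the arrays highest in BAX, FLT1, TEK, EDN1 and SELE were among the lower arrays. SELE cleared background on just 1 array per group. The part of endothelial content in the BAX values was not tested.

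None of the other marker lists had every slide 1 array above the rest, although erythroid markers came near, with hypoxia 2 at 0.840 and hypoxia 4 at 0.859. Leukocyte markers, 8 of 15 on the array, summed to 1.73 to 3.57 in normoxia and 0.879 to 2.97 in hypoxia. Fibroblast markers, 4 of 8, summed to 25.1 to 73.8 in normoxia and 25.3 to 180 in hypoxia, the latter on hypoxia 1. The proliferation marker PCNA, the only 1 of 9 on the array, had linear levels of 2.30, 2.86, 3.26 and 3.51 on normoxia 1 to 4 and 1.86, 2.25, 2.93 and 2.85 on hypoxia 1 to 4. It ran opposite to BAX, with r = -0.739 over the 8 arrays, and 3.23% of all probes had an r as low or lower. The part of proliferating cells in the BAX values was not tested. Erythroid markers (3 of 10), adipocyte markers (5 of 7) and skeletal muscle markers (6 of 9) had overlapping ranges in both groups: 0.540 to 2.30 against 0.840 to 2.17, 0.457 to 1.83 against 0.168 to 1.77, and 0.133 to 1.58 against 0.0866 to 1.58 for normoxia and hypoxia. TSHR was the sole thyroid or thymus gene of 7 listed, at 0.00940 to 0.125 in normoxia and 0.00621 to 0.121 in hypoxia, and none of 8 nerve genes was on the array. Log2 sums correlated with A_70_P041722 over the 8 arrays at r = 0.534 for erythroid, 0.325 for adipocyte and 0.320 for skeletal muscle markers. The r was 0.255 for fibroblast, -0.0143 for leukocyte and -0.485 for smooth muscle markers, and 0.436 for TSHR. The part of these lists in the BAX values was not tested.

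**Figure D4:**
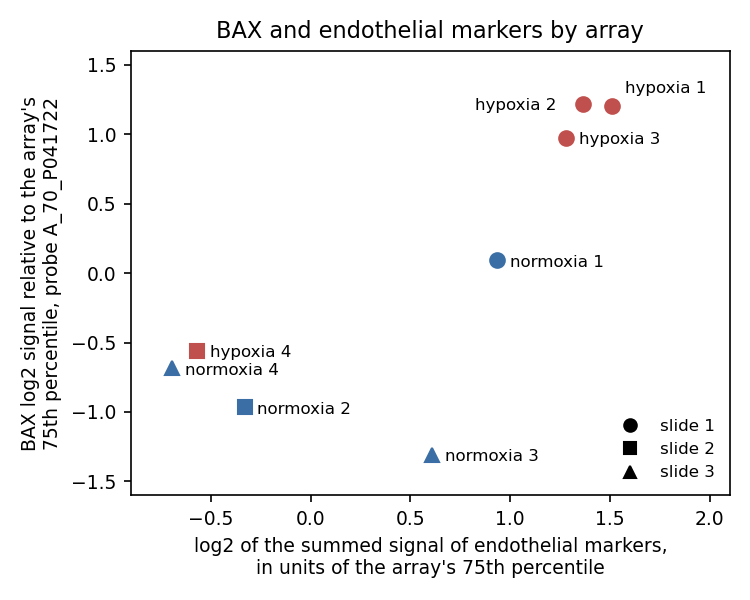
Log2 BAX level of probe A_70_P041722 (vertical axis) against the log2 summed level of 8 endothelial markers (horizontal axis), 1 labelled point per array, with red for hypoxia, blue for normoxia and the shape giving the slide. The 4 slide 1 arrays lie highest on both axes, hypoxia 4 lies with normoxia 2 and 4, and normoxia 3 has the lowest BAX with an intermediate endothelial sum.

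Genes whose levels followed BAX most closely were ranked by Pearson's r with A_70_P041722 over the 8 arrays, among 549 named genes whose median r was 0.22. CAPN1, the large subunit of a calcium-activated cysteine protease, came first with r = 0.914 (Spearman's rho 0.762), and 0.827 over 6 arrays without hypoxia 1 and 2, those farthest from the BAX median. Its levels were 0.66, 0.85, 0.22 and 0.72 on normoxia 1 to 4 and 1.94, 1.62, 1.47 and 0.52 on hypoxia 1 to 4. As with BAX, hypoxia 1 to 3 stood above every other array and hypoxia 4 did not, but normoxia 1 was not above the other normoxia arrays. RPL32, a protein of the large ribosomal subunit, followed with r = 0.881 (rho 0.833, and 0.916 over the 6 arrays). DOHH, an enzyme that completes the hypusine residue of a translation factor, had r = 0.875 (rho 0.881, and 0.866). NOS3, the nitric oxide synthase of endothelium, had r = 0.844 (rho 0.786, and 0.700).

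In RPL32, DOHH and NOS3 all slide 1 arrays lay above all others, as in BAX, while in CAPN1 they did not. Log2 differences between hypoxia and normoxia were 0.77 (SE 0.35) for CAPN1, 0.65 (SE 0.31) for RPL32, 0.38 (SE 0.34) for DOHH and 1.12 (SE 0.57) for NOS3. These genes were picked for likeness to BAX, so the differences follow in part from the choice. Over all probes the median r was 0.17, 29 probes (0.259%) reached 0.9 and 15 reached -0.9 or below. The leading principal component of the arrays held 69.8% of the variance, and BAX correlated with it at 0.49 and 0.38, below the median size of 0.61 over all probes.

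Other genes of the apoptosis machinery were read from 7 lists of 84 genes. Besides BAX, 11 are reported here, all of which passed the filter on dim probes. Of these, 5 were higher and 6 lower in hypoxia, where 48.3% of all probes were higher. The count higher was 3 under normexp or with slide as a block. None of the 11 passed an adjusted p of 0.05, against 0% of all probes (limma with Benjamini-Hochberg adjustment, adjusted p of 0.998 for each gene). None had an unadjusted p under 0.05 in limma, where 2.97% of all probes were higher and 0.704% lower at that threshold. The median log2 difference of the 11 genes was -0.08, beside -0.02 for all probes. All changes given below are log2 differences, hypoxia minus normoxia, for the probe with the highest mean.

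BAK1, the other pore-forming effector, had levels of -1.49, -3.76, -1.69 and -3.78 on normoxia 1 to 4 and -2.25, -2.02, -0.41 and -2.70 on hypoxia 1 to 4. The groups overlapped throughout and the difference was 0.84 (SE 0.73), with 0.91 at its other probe and -0.13 under normexp. The probe cleared background on 3 normoxia arrays and 4 hypoxia arrays, and the other probe on 3 arrays per group. Hypoxia 1, the top array for one BAX probe, was the second lowest hypoxia array for BAK1. BAD, the BH3-only antagonist of the prosurvival members, varied little, from 3.00 to 3.29 in normoxia and 2.62 to 3.20 in hypoxia, with a difference of -0.16 (SE 0.23) and -0.09 at its other probe.

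Of the prosurvival members, BCL2 had levels of 1.15, -0.95, -1.51 and -2.22 on normoxia 1 to 4 and 0.06, 0.24, -0.41 and -0.49 on hypoxia 1 to 4. Normoxia 1 was the highest array of all and the other normoxia arrays the lowest, so that the hypoxia levels fell inside the normoxia range. The difference was 0.73 (SE 0.68), with 0.79 at the other probe, but -0.53 with slide as a block and -1.19 within slide 1. It was 1.41 (SE 0.38) without normoxia 1 and 1.27 (SE 0.48) with array weights, with adjusted p of 0.835 and 0.394 in limma, and 0.29 without normoxia 4. BAX, by comparison, stayed above 0 with slide as a block and within slide 1. BCL2L1, which encodes BCL-XL, differed by 0.17 (SE 0.40) and turned to -0.10 with slide as a block and -0.21 under normexp. MCL1, a short-lived guardian of mitochondria, differed by 0.36 (SE 0.43) with levels of -2.11 to -0.99 in normoxia and -2.03 to -0.41 in hypoxia. Its other probe was not well above background on any array.

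ENDOG, a mitochondrial nuclease released during apoptosis, averaged 0.95 ± 0.27 in hypoxia and 1.03 ± 0.40 in normoxia (SD, n = 4 each), a difference of -0.08 (SE 0.29).

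The death receptor FAS cleared background on 2 arrays per group and differed by -0.24 (SE 0.56). Its level was lower in hypoxia in 4 of 4 same-numbered pairs, as in 10.4% of all probes, but its other probe gave 0.27. TNF, the ligand of a related receptor, cleared it on 3 per group and differed by -0.25 (SE 0.58).

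The 14-3-3 proteins bind phosphorylated partners, BAD among them, and have been described as holding BAX in the cytosol. YWHAE had levels of 2.17, 2.91, 2.98 and 2.31 on normoxia 1 to 4 and between 3.01 and 3.29 on the 4 hypoxia arrays. It was the single gene of the 11 with no overlap between groups, an arrangement that 1.73% of all probes showed in that direction, and it was higher in all 4 same-numbered pairs, as were 13.8% of all probes. The difference was 0.55 (SE 0.27), with 0.54 at its other probe, but 0.10 within slide 2. Its adjusted p was 0.998 in limma and 0.416 with the array number as a replicate block, where its unadjusted p was 0.0481 and 1331 of all probes (11.9%) had one under 0.05. YWHAH was lower in hypoxia in 4 of 4 pairs, as were 10.4% of all probes, by -0.22 (SE 0.26) on average. SFN, dim on several arrays, differed by -0.93 (SE 0.97), by -0.24 without normoxia 1, by -1.65 without normoxia 2 and by -2.70 within slide 1.

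**Figure D5:**
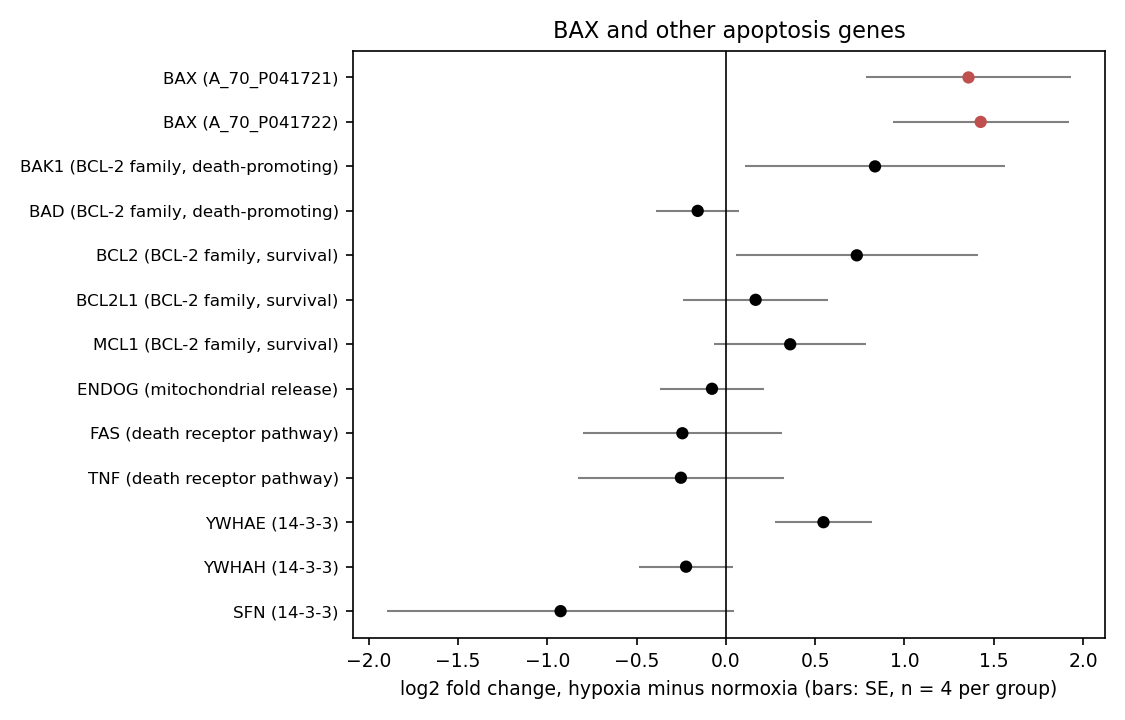
Log2 difference between hypoxia and normoxia (horizontal axis) for the 2 BAX probes and 11 other apoptosis genes grouped by role, with bars of 1 SE and a vertical line at 0. The BAX probes lie at 1.36 and 1.43, the other genes between -0.93 (SFN) and 0.84 (BAK1), and YWHAE at 0.55 has the shortest bar among the genes above 0.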

How the data were processed

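The members and gene lists were chosen with earlier results of these data known. The deposited files give linear intensity per spot; the authors ran Agilent Feature Extraction 9.5.3.1 (protocol GE1-v5_95_Feb07, design 019921), per the file headers. The processed intensity is background-subtracted and detrended there, with no scaling between arrays. The authors' deposited series table holds a ratio: judged by its values, processed intensity divided by the array's 75th percentile, with a floor of 0.01.

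Of 15744 spots per array 536 controls were left out, leaving 15208 spots of 15008 probes. Outlier spots were left out, 72 probes lacking a value on an array were dropped, and probes well above background on at least 4 of 8 arrays were kept, which left 11216. Log2 of processed intensity minus the array's 75th percentile was fitted with limma 3.58.1 (lmFit, eBayes; R 4.3.3) over all 8 arrays, with Benjamini-Hochberg adjustment over all kept probes and a threshold of 0.05, and was tested on simulated data. The number of arrays limits the precision.

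Names came from the files or from RefSeq genes of assembly ARS-UI_Ramb_v3.0, used for names only: 1219 probes had a name, for 700 genes, and 13789 had none. The text names every BAX probe, the measured genes of the apoptosis lists and those among the 5 named genes most like BAX, with some genes under these rules not reported here. The highest-mean probe stood for other genes. Same-numbered arrays deviated together (r of deviations from group means 0.820, 0.726, 0.584 and 0.434 for numbers 1 to 4). The labels do not say what the number marks, so the main fit was unpaired and the number was a block in an alternative only. Normoxia 2 correlated more with hypoxia 4 of the same slide (0.801). Hypoxia 3 correlated with normoxia 1 of the same slide (0.578) nearly as much as with normoxia 3. Hypoxia 2 and normoxia 1, also of the same slide, deviated in opposite directions (-0.638). Alternatives were other scalings, normexp with an offset of 50, other filters, the series table, replicate and slide blocks, array weights and leaving out arrays. The array files name no genome build.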

Additional observations from a re-analysis of the deposited data

Results flagged for a closer look

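Hypoxia 4 stood apart from the other hypoxia arrays for both BAX probes. For A_70_P041721 its level of -0.76 lay below the next hypoxia array at 1.03, a gap of 0.883 of the group's range. For A_70_P041722 its level of -0.56 lay below the next at 0.97, a gap of 0.864 of the range. Both gaps exceed Dixon's 95% critical value for 4 arrays. Because BAX was selected with these values known, that serves to flag the array and is not a test. Among the probes of BAX and the apoptosis genes, 26 groups were examined, chance gives about 1 such gap in 20 groups, and the BAX probes share the same RNA. Hypoxia 4 was also the only hypoxia array outside slide 1.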

How the results depend on the processing

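With 4 arrays per group and slides shared unevenly between groups, the BAX difference has wide error. Dim genes such as BAK1, FAS, TNF and SFN were not well above background on every array. BAX kept its direction under every alternative run, all of them drawn from the same 8 arrays. Within slide 2 its difference was 0.42 and 0.41, and without single arrays 1.14 to 1.83 and 1.23 to 1.85. With the replicate block it was 1.36 and 1.43, values that the balanced numbering fixes in advance. No probe reached an adjusted p of 0.05 in any limma fit. At an unadjusted p under 0.05 there were 412 probes as reported, 134 with median scaling, 24 with normexp (37.5% of them higher, against 80.8% as reported), 200 with slide as a block, 1358 with array weights (68.1% higher), 1331 with the replicate block, 69.8% higher with cyclic loess, and 173 (without hypoxia 3) to 613 (without normoxia 3) without single arrays, with 250 without normoxia 2, 181 without normoxia 4 and 258 without hypoxia 2. Of 11 apoptosis genes 5 were higher as reported, where 48.3% of all probes were. The count was 3 with normexp, 3 with slide as a block and 5 to 6 without single arrays. In limma, 1 of these genes had an unadjusted p under 0.05 with the replicate block (YWHAE), with array weights (BCL2) and without normoxia 1 (BCL2).

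Signs turned in these cases, and the cause was not tested. BCL2L1 was -0.011 with median scaling, -0.022 with cyclic loess, -0.21 with normexp, -0.098 with slide as a block, -0.11 with array weights and -0.46 within slide 2. ENDOG was 0.0090 with quantile normalization and 0.040 within slide 1. BAD was 0.0077 with cyclic loess. BAK1 was -0.13 with normexp and -0.072 within slide 1. BCL2 was -0.53 with slide as a block and -1.19 within slide 1. FAS averaged over its probes was 0.014. Within slide 2 SFN was 0.40 and TNF 0.47. Without single arrays BCL2L1 ranged from -0.11 to 0.43, ENDOG from -0.26 to 0.042, FAS from -0.53 to 0.16 and TNF from -0.57 to 0.22; signs held for BAK1 (0.36 to 1.23), BCL2 (0.29 to 1.41), MCL1 (0.11 to 0.65), YWHAE (0.41 to 0.67), BAD (-0.24 to -0.047), YWHAH (-0.37 to -0.11) and SFN (-1.65 to -0.24).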
